A study of Mus musculus with 10 samples.

Results

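The 30 genes described here encode the machinery and the targets of the sterol regulatory element binding proteins (SREBPs), the transcription factors that drive sterol and fat synthesis. They were chosen by name from a list of cholesterol and fatty acid synthesis genes under SREBP control. All 30 were found by their Ensembl identifiers among the 53379 genes counted, and all 30 were among the 14528 genes with enough counts to test. The study sequenced RNA from mouse spleen dendritic cells, the antigen-presenting cells that prime T cells, in 10 libraries prepared from C57BL/6 mice of 16 weeks. The mice carried Atg16l1 +/+ (wild type, WT) or Atg16l1 -/- (knockout, KO), the second lacking a protein that autophagy needs to attach LC3 to membranes. Cells high in MHC class II and CD11c were sorted per animal as CD11b+ CD8- or as CD11b- CD8+. That gave 3 WT and 2 KO libraries labelled CD11b, and 3 WT and 2 KO libraries labelled CD8. The series title speaks of an atherogenesis model, but the labels name no diet, no other allele and neither the promoter nor the cell type in which Atg16l1 was deleted. They also do not say whether a CD11b and a CD8 library came from the same mouse.

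Each library held between 9467704 and 13768884 counts assigned to genes. Levels are given in CPM, read counts scaled to a common library size, and levels of different genes are compared only per kilobase of annotated exon. Atg16l1 ranged from 13.3 to 32.7 CPM with the WT label and from 1.73 to 3.31 CPM with the KO label, as the genotype labels say. The subset labels ran against the markers: Cd8a ranged from 448 to 578 CPM under the label CD11b but from 0.905 to 5.87 CPM under the label CD8. Itgam, the gene of CD11b itself, ranged from 1.58 to 2.73 CPM against 76.1 to 104 CPM. Xcr1, a receptor of CD8-type dendritic cells, and Sirpa, a receptor of CD11b-type dendritic cells, were likewise opposite to the labels, at 290 to 442 against 7.14 to 11.3 CPM and at 23.9 to 29.2 against 553 to 629 CPM. Every direction between subsets below is therefore given by "labelled CD11b" and "labelled CD8". Markers of other spleen cells were also measured. The sum over 8 B cell markers was 260 to 594 CPM at the label CD11b and 359 to 2330 CPM at the label CD8, where KO replicate 2 was highest. The sum over 8 red pulp macrophage markers was 139 to 192 CPM against 244 to 406 CPM, and all 8 genes of both lists had counts in every library. In WT cells 6 of the 8 B cell markers and 5 of the 8 macrophage markers were called higher at the label CD8, and 1 macrophage marker at the label CD11b. Of all genes tested, 15.7% were called higher at the label CD8 and 13.8% at the label CD11b. Plasmacytoid dendritic cell markers summed to 98.1 to 158 CPM against 94 to 128 CPM, neutrophil and monocyte markers to 18.3 to 28.6 CPM against 48.4 to 58.8 CPM, and T and NK cell and erythroid markers stayed at or below 17.4 CPM in every library.

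As background, SREBPs are made as membrane proteins of the endoplasmic reticulum and are bound there by Scap. When sterols are scarce, Scap carries them to the Golgi, where proteases release the part that enters the nucleus; when sterols are plentiful, Insig proteins hold Scap back. Srebf2 encodes the form best known for cholesterol synthesis genes and Srebf1 the forms best known for fatty acid synthesis genes. Their activity is set mainly by cleavage of the protein, which RNA counts do not measure. SREBPs bind sterol response elements, usually beside binding sites of NF-Y and Sp1.

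Promoter windows of 300 bases, most of them before the start site, were present for 23 of the 30 genes in a table derived from RefSeq (build GRCm38.p6). Windows are shown for 5 genes. Hmgcs1 is the only member whose window held the sterol response element letters searched, TCACNCCAC. The other 4, Pmvk, Mvd, Cyp51 and Fasn, are members that differed between the subset labels in WT cells. Sequences run 5′ to 3′ along the gene's strand. Capitals mark TCACNCCAC in Hmgcs1, chr13:119690101-119690400, plus strand. Capitals mark the NF-Y letters CCAAT, or ATTGG on the other strand, in Pmvk (chr3:89454291-89454590, plus strand), Mvd (chr8:122443373-122443672, minus strand), Cyp51 (chr5:4104648-4104947, minus strand) and Fasn (chr11:120824498-120824797, minus strand).
Hmgcs1: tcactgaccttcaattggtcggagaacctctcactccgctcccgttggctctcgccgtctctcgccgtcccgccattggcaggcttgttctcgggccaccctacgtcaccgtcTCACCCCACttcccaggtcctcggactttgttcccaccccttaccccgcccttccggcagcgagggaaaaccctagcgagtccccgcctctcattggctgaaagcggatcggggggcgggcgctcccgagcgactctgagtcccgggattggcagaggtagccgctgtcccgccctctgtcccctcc
Pmvk: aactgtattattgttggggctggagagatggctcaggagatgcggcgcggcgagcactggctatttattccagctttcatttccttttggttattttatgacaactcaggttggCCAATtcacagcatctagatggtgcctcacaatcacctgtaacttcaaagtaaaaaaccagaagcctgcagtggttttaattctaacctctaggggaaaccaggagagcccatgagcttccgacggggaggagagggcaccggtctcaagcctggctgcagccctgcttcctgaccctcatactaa
Mvd: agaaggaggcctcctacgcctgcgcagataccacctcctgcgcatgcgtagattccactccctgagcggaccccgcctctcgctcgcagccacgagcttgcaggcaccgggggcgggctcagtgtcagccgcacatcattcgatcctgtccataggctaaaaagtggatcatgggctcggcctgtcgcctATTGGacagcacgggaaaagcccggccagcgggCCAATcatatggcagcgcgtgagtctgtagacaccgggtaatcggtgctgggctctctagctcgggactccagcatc
Cyp51: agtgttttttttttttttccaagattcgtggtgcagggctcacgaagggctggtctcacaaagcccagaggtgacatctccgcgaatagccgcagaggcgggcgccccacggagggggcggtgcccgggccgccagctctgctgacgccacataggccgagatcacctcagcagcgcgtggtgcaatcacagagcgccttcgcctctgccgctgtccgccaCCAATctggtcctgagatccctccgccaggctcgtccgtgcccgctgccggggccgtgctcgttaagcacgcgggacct
Fasn: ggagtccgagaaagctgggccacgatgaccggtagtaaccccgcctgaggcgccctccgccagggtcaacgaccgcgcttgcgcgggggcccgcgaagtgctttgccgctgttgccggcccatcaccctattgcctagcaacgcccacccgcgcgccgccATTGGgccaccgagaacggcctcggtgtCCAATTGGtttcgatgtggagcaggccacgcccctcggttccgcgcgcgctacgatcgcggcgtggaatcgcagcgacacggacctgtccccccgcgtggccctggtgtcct

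The match in Hmgcs1 began 137 bases before the start site, and the same window held 4 CCAAT and 3 GGGCGG matches. The single CCAAT match of Pmvk lay 136 bases before its start and that of Cyp51 lay 29 before. The 2 matches of Mvd lay 60 and 27 bases before the start, and the 3 of Fasn lay between 90 and 59 before it, the last 2 overlapping on opposite strands. Searched on both strands, CCAAT was present in windows of 18 of the 23 members (78.3%), against 41.058% of all 27025 genes with a window. The Sp1 letters GGGCGG were present in 19 (82.6%), against 38.202% of all genes, with neither Pmvk nor Fasn among them. TCACNCCAC was present in 1 member (4.3%) and in 1.436% of all genes. The E-box CACGTG, another sequence that SREBP-1 can bind, was present in Insig1, Scap, Sc5d, Dhcr7 and Hsd17b7, 5 of 23 members (21.7%), against 8.093% of all genes. Matches of different letters were counted separately and may share bases, and a match is a description of the window and not a measured binding site.

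Among the genes of sensing and control, the Srebf2 transcript had the highest level of all 30 members, 45.6 ± 3.50 CPM per kilobase (SD over all 10 libraries, n = 10). Srebf1 stood at 8.69 ± 1.26, Scap at 10.4 ± 1.45 and Insig1 at 5.48 ± 1.09 CPM per kilobase. Within single libraries, the Srebf2 level per kilobase was 4.53 to 6.71 times that of Srebf1. In the fatty acid branch, Scd2 (19.4 ± 5.91), Fasn (17.4 ± 4.67) and Scd1 (14.0 ± 5.54 CPM per kilobase) were the highest. In the sterol branch, Pmvk (17.9 ± 5.97), Ebp (7.54 ± 2.33) and Cyp51 (6.95 ± 2.39 CPM per kilobase) led. The SDs over all libraries include the differences between labels, and the order turned with them: in WT, Fasn had 21.2 ± 1.95 and Pmvk 12.8 ± 0.803 CPM per kilobase at the label CD11b, against 12.5 ± 0.112 and 22.7 ± 1.42 at the label CD8 (SD, n = 3 each). Synthesis genes at the other end were Lss at 0.301 ± 0.173, Fdps at 0.269 ± 0.200 and Idi1 at 0.206 ± 0.169 CPM per kilobase. Idi1, Fdps, Fads2 and Acat2 rested on only 82, 134, 139 and 149 counts over all 10 libraries together. Of the 50-base stretches of their transcripts, 17.7% in Idi1, 26.2% in Fdps and 39.1% in Acat2 also occur on the same strand in transcripts of other genes. Genes that share stretches with Acat2 on either strand are Acat3 and Tcp1. Reads from such stretches could have been left uncounted, so those 3 levels are uncertain. The same share was 30.4% in Acaca and 9.4% in Fdft1.

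**Figure D1:**
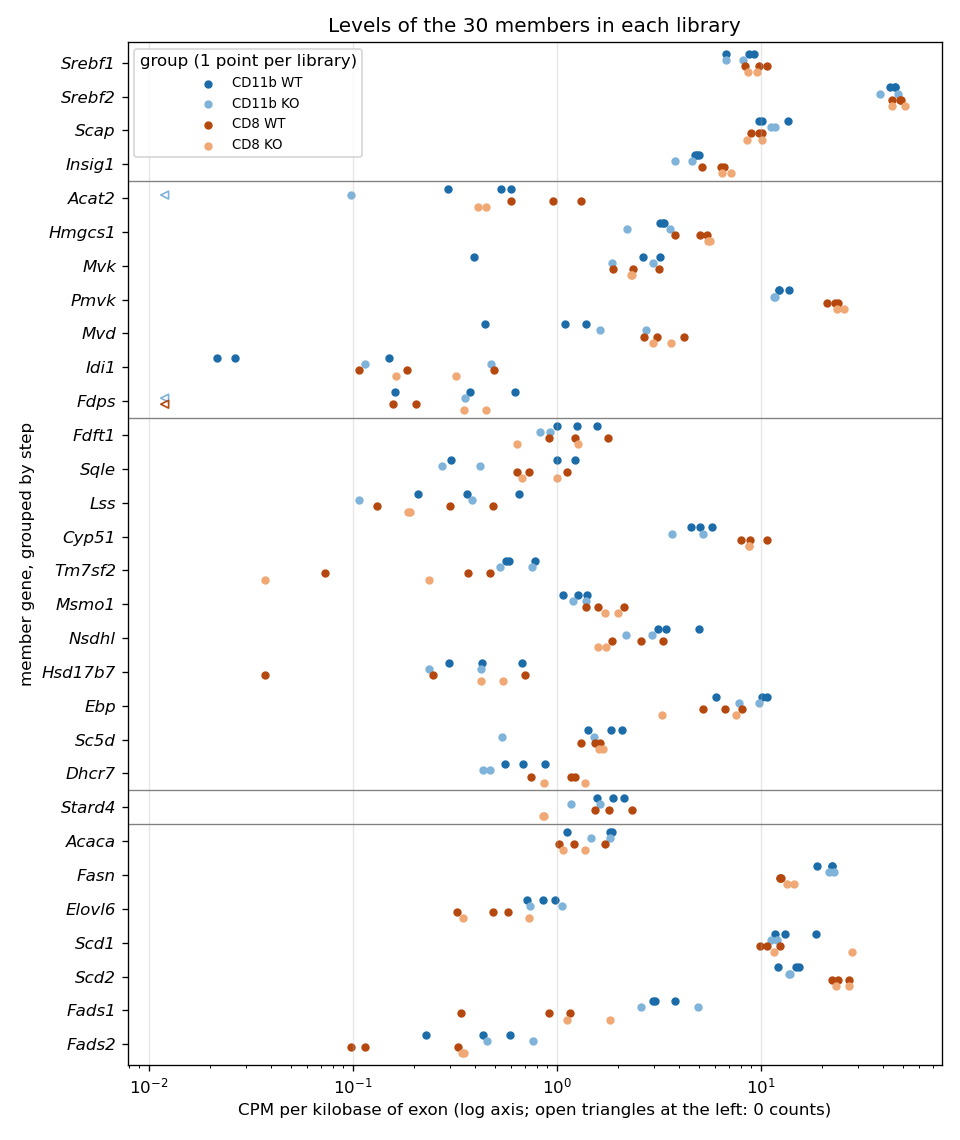
Level of each of the 30 members in each of the 10 libraries, in CPM per kilobase of exon on a log axis, coloured by group, with open triangles for libraries with 0 counts. Srebf2 lies to the right of all other members, and the libraries labelled CD11b and CD8 form separate clusters for Pmvk, Cyp51, Fasn, Scd2 and Fads1.

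The comparison of KO with WT cells asks whether loss of Atg16l1 changed the transcripts of this pathway. No member passed the test in either subset. In the libraries labelled CD11b, 0 of 30 members were called (edgeR quasi-likelihood test, Benjamini-Hochberg adjusted p under 0.05), where 0.145% of all genes tested were called. In the libraries labelled CD8, 0 of 30 were called against a background of 0.145%. For the mean effect over both labels the count was 0 of 30 against 0.289%, and for the difference of the effects between labels 0 of 30 against 0.0206%. At an unadjusted p under 0.05 the members counted 3, 3, 3 and 1 in the same order, and the background at that level was 6.42%, 6.52%, 8.43% and 5.46% of all genes. DESeq2 and limma-voom also called 0 members in each. The 95% intervals given below are for single genes and are not adjusted for the number of genes tested.

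The transcripts of the regulators overlapped between genotypes or lay close together. Srebf2 stood at 310, 326 and 327 CPM in the WT libraries labelled CD11b and at 276 and 340 CPM in the KO ones. At the label CD8 it stood at 317, 349 and 347 CPM in WT, versus 366 and 315 CPM in KO. The groups overlapped at both labels, and the log2 difference KO minus WT was -0.06 (95% interval -0.278 to 0.161) and 0.01 (-0.205 to 0.233). Srebf1 stood at 52.2, 38.1 and 49.4 CPM in WT, versus 38.0 and 46.2 CPM in KO at the label CD11b, with a log2 difference of -0.14 (-0.492 to 0.210). At the label CD8 its levels were 47.2, 55.6 and 60.1 CPM in WT, versus 48.8 and 54.3 CPM in KO, a log2 difference of -0.08 (-0.425 to 0.271). One KO library of Srebf1 lay marginally below all WT libraries at the label CD11b, and the rest were mixed with them. Scap, the escort protein, had log2 differences of 0.04 (-0.255 to 0.344) and -0.03 (-0.337 to 0.268). Insig1, the retention protein and itself an SREBP target, stood at 15.4, 15.1 and 14.7 CPM in WT, versus 14.2 and 11.7 CPM in KO at the label CD11b. At the label CD8 it stood at 19.9, 20.5 and 15.9 CPM in WT, versus 19.9 and 22.1 CPM in KO. Both KO libraries of Insig1 were below the WT libraries at the label CD11b, and the groups overlapped at the label CD8. Its log2 differences were -0.22 (-0.716 to 0.284) and 0.17 (-0.321 to 0.652), and neither passed the test.

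Of all 30 members, 20 had a negative log2 difference at the label CD11b, with a median of -0.13 against -0.01 over all genes tested, of which 50.9% were negative. Of the 11 genes from squalene to the finished sterol ring, 10 were negative there, with a median of -0.54, and none passed the test. At the label CD8 the median over the 30 was 0.01, with 16 positive and 14 negative, and the squalene and ring genes split into 5 positive and 6 negative. Sqle, which oxidises squalene and is a control point of sterol synthesis, stood at 6.83, 5.58 and 1.67 CPM in WT, versus 1.51 and 2.33 CPM in KO at the label CD11b. One KO value lay below the WT range and the other inside it, and the log2 difference was -1.28 ± 0.600 (SE; edgeR adjusted p = 0.769). Acat2, which starts the pathway by joining acetyl-CoA units, had 46 counts in the 3 WT libraries labelled CD11b and 3 counts in the 2 KO libraries. Per scaled library that is a ratio of 0.111, with an exact counting interval of 0.0220 to 0.344 that leaves out the spread between mice. The edgeR test of Acat2 gave an adjusted p of 0.690, and its log2 difference ran from -6.79 (without CD11b KO replicate 2) to -0.86 (both strands counted) over the 19 alternatives. Over all libraries Acat2 had 149 counts on its own strand and 274 on the other. Mvd, the decarboxylase of the mevalonate steps, stood at 2.05, 0.830 and 2.60 CPM in WT, versus 3.03 and 5.08 CPM in KO at the label CD11b. Both KO libraries were above the WT ones, with a log2 difference of 1.16 ± 0.525 and an adjusted p of 0.752 (edgeR).

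Among the fatty acid genes, Fasn and Scd2 had narrow intervals and Fads1 wide ones. Fasn, the fatty acid synthase, had log2 differences KO minus WT of 0.07 (95% interval -0.146 to 0.293) under the label CD11b, then 0.17 (-0.0543 to 0.389) under the label CD8, where both KO libraries lay above the WT ones. Scd2, a desaturase, had -0.03 (-0.305 to 0.249) and 0.04 (-0.232 to 0.311). Fads1, another desaturase, had 0.20 (-0.593 to 0.984) and 0.88 (0.0283 to 1.73), the second with an edgeR adjusted p of 0.750. Of the 7 fatty acid genes, 5 were positive at the label CD11b (median 0.07) and 6 at the label CD8 (median 0.22), and 0 passed at either. In the sterol branch, Pmvk had -0.12 (-0.498 to 0.253) and 0.11 (-0.249 to 0.473), and Cyp51 had -0.21 (-0.635 to 0.218) and -0.08 (-0.489 to 0.333).

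**Figure D2:**
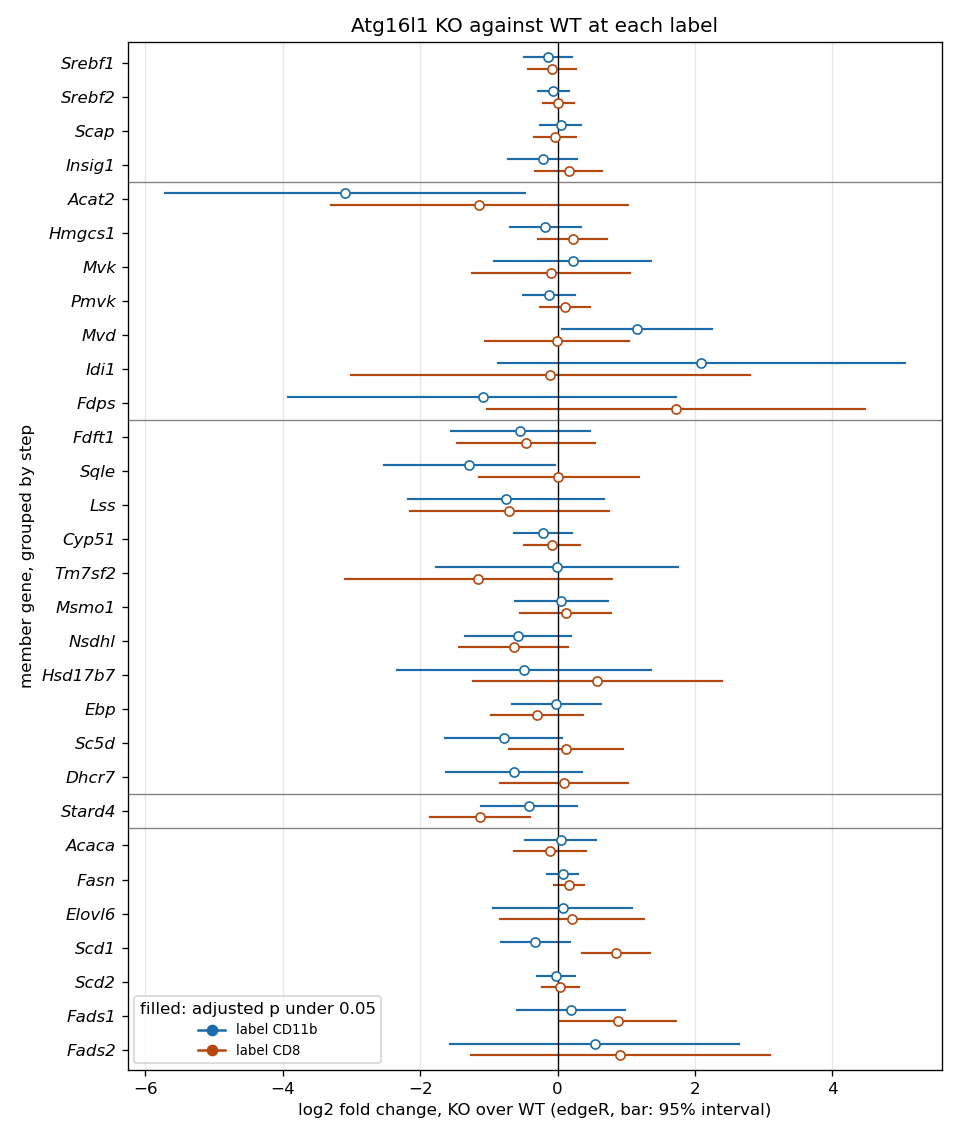
Log2 difference KO minus WT of each member at the label CD11b and at the label CD8 (x axis), with 95% intervals from the edgeR fit. No member passed the adjusted threshold at either label, and the intervals of Srebf2, Fasn and Scd2 are among the narrow ones while those of Acat2, Idi1 and Fdps are wide.

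Stard4 and Scd1 came nearest to the threshold for KO against WT at the label CD8. Stard4, which carries sterols between membranes, stood at 13.1, 8.60 and 10 CPM in WT, versus 4.86 and 4.79 CPM in KO. The groups did not overlap, and the log2 difference was -1.13 ± 0.352 (95% interval -1.86 to -0.398, edgeR adjusted p = 0.382). At the label CD11b, Stard4 stood at 10.6, 12 and 8.84 CPM in WT, versus 6.56 and 9.08 CPM in KO. Those groups overlapped, with a log2 difference of -0.42 ± 0.338 and an edgeR adjusted p of 0.890. The mean over both labels was -0.77 ± 0.244 (edgeR adjusted p = 0.296). Nsdhl, a sterol dehydrogenase that acts on the ring, was lower in both KO libraries than in every WT library at each label. Its log2 differences were -0.58 and -0.64, and the mean of -0.61 had an adjusted p of 0.548 (edgeR).

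Scd1, the desaturase that makes oleate from stearate, rested on 1 library. It stood at 60.9, 52.9 and 48.5 CPM in WT, versus 56.6 and 138 CPM in KO at the label CD8. KO replicate 1 lay within the WT range and replicate 2 far above it, and the log2 difference was 0.85 ± 0.238 (edgeR adjusted p = 0.269). At the label CD11b, Scd1 stood at 57.9, 91.6 and 63.9 CPM in WT, versus 54.9 and 58.7 CPM in KO, with a log2 difference of -0.33 (adjusted p = 0.882). The difference between these effects was -1.17 ± 0.342 (edgeR adjusted p = 0.726). Left without KO replicate 2, the log2 difference at the label CD8 was 0.07, and without KO replicate 1 it was 1.35 with an edgeR adjusted p of 0.00171. The same KO replicate 2 had the highest sum of B cell markers, 2330 CPM, against 815 CPM in KO replicate 1 and 359 to 904 CPM in WT. All 8 of those markers were above 0 in each of these libraries and had a positive log2 difference KO minus WT at the label CD8, with a median of 1.35, and their part in the Scd1 value was not tested.

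**Figure D3:**
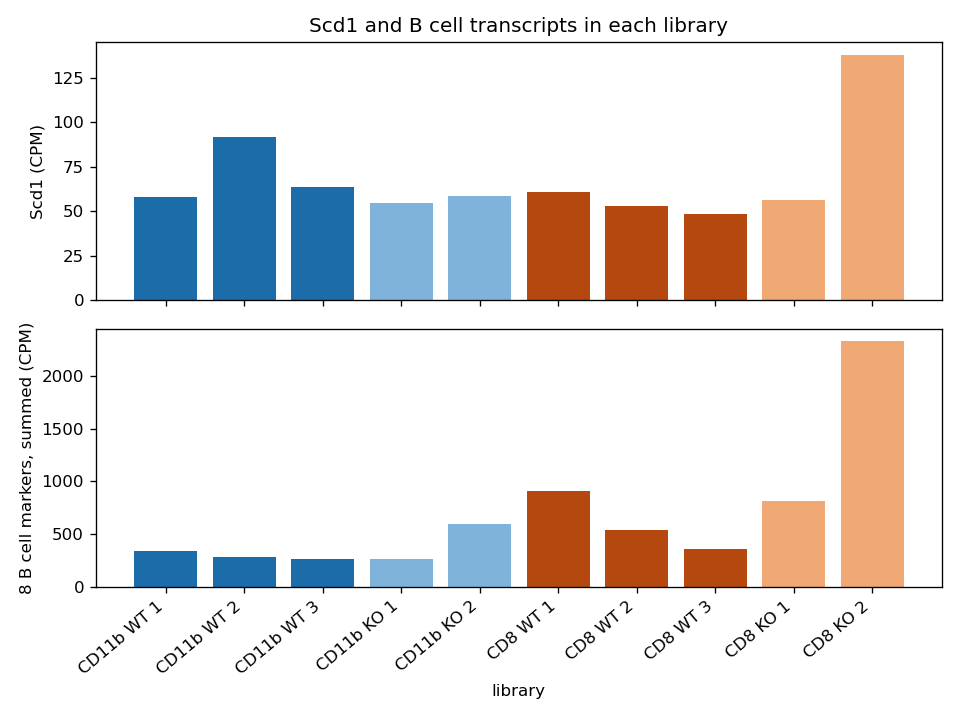
Scd1 level in CPM (upper bars) and the summed CPM of 8 B cell markers (lower bars), 1 bar per library, coloured by group. The KO library labelled CD8 at 138 CPM of Scd1 is also the one at 2330 CPM of B cell markers, and the other 9 libraries lie between 48.5 and 91.6 CPM of Scd1.

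The comparison of the 2 subset labels asks how the pathway differed between the dendritic cell types. In WT cells, 6 of 30 members were called (20.0%), against 29.5% of all genes tested: 2 were higher at the label CD11b, where 13.8% of all genes were, and 4 lower, against 15.7%. In KO cells, 7 of 30 were called (23.3%), against 22.8% of all genes: 2 were higher, against 10.3%, and 5 lower, against 12.5%. These shares are below and near the background, so the count of differing members did not stand out from that of other genes. Fasn and Fads1 were higher at the label CD11b in both genotypes, and Pmvk, Cyp51 and Scd2 were lower in both. Mvd was called lower in WT, and Hmgcs1 and Scd1 were called lower in KO. In total 5 of the 30 members were called in both genotypes, all 5 in the same direction. Of all 14528 genes tested, 2834 were called in both, 2832 of them in the same direction. The summed level of all 30 was 954 to 1123 CPM over the 10 libraries, with the labels overlapping. In these bulk samples, fewer cells of a type and less RNA per cell cannot be told apart. The sums of B cell and red pulp macrophage markers given above were also larger at the label CD8, and their part in these differences was not tested.

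**Figure D4:**
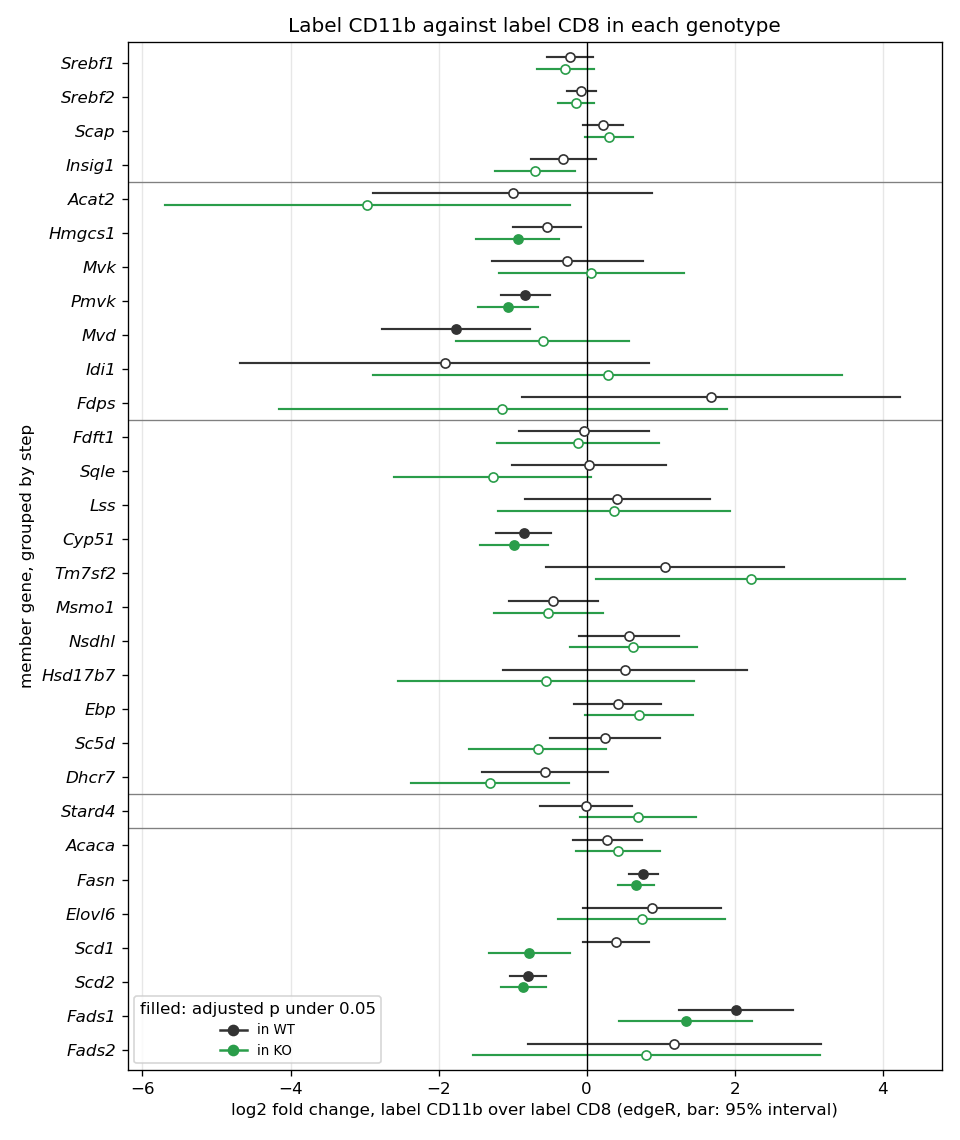
Log2 difference between the libraries labelled CD11b and those labelled CD8 for each member, in WT and in KO cells (x axis, positive is higher at the label CD11b), with 95% intervals from the edgeR fit. Fasn and Fads1 lie to the right of 0 and Pmvk, Cyp51 and Scd2 to the left in both genotypes.

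In the fatty acid branch, the called members differed in both directions. Fasn encodes the fatty acid synthase that builds palmitate. It stood at 245, 208 and 245 CPM in WT, versus 238 and 251 CPM in KO at the label CD11b. Under the label CD8 the values were 137, 135 and 137 CPM in WT and 159 and 148 CPM with the KO label. Every library labelled CD11b was above every library labelled CD8. The means in WT were 232 ± 21.4 and 137 ± 1.23 CPM (SD, n = 3 each), a log2 difference of 0.77 ± 0.096 (edgeR adjusted p = 9.23e-07), and in KO the difference was 0.67 ± 0.117 (adjusted p = 0.000109). Fads1, a desaturase of polyunsaturated fatty acids, stood at 18.3, 14.3 and 14.5 CPM in WT, versus 23.6 and 12.4 CPM in KO at the label CD11b. Under the label CD8 they were 4.43, 1.63 and 5.58 CPM in WT, versus 5.44 and 8.80 CPM in KO. The labels again did not overlap, with log2 differences of 2.02 ± 0.371 (adjusted p = 0.000150) in WT and 1.34 ± 0.433 (adjusted p = 0.0273) in KO. The KO call of Fads1 was lost without CD11b KO replicate 1 (edgeR adjusted p = 0.348) or CD8 KO replicate 1 (0.231).

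Scd2, a stearoyl-CoA desaturase like Scd1, went the other way. It stood at 66.0, 84.9 and 81.7 CPM in WT, versus 76.6 and 75.4 CPM in KO at the label CD11b. With the label CD8 it reached 123, 131 and 148 CPM in WT, versus 127 and 148 CPM in KO. All libraries labelled CD8 were above all labelled CD11b, with log2 differences of -0.79 ± 0.119 (edgeR adjusted p = 1.16e-05) in WT and -0.86 ± 0.146 (adjusted p = 7.94e-05) in KO. Scd1 had a log2 difference of 0.40 ± 0.217 in WT (adjusted p = 0.190) and was called in KO at -0.78 ± 0.264 (adjusted p = 0.0366). Without CD8 KO replicate 2, which leaves 1 library in that group, the KO value of Scd1 was 0.01. Without CD11b KO replicate 1 it was -0.73 and without CD11b KO replicate 2 it was -0.82. The KO call of Scd1 was lost with DESeq2 (adjusted p = 0.188), with limma-voom (0.0969) and in edgeR without CD8 WT replicate 2 (0.0552). It was also lost without either CD11b KO replicate, and without CD8 KO replicate 2 alone or together with CD11b WT replicate 1. Each of those fits leaves 1 library in a KO group. The call held in 12 of the 19 alternatives. The WT difference of Scd1, of the opposite sign, was called with no filter on low counts (0.40, adjusted p = 0.0278) and without both CD11b WT replicate 1 and CD8 KO replicate 2 (0.53, adjusted p = 0.0143). Elovl6, which lengthens palmitate, was higher in every library labelled CD11b than in every one labelled CD8 of its genotype, with log2 differences of 0.88 and 0.74 that did not pass (edgeR adjusted p = 0.157 and 0.393). Acaca, which makes the malonyl-CoA that Fasn uses, had differences of 0.28 and 0.42 that did not pass (adjusted p = 0.414 and 0.325). The branch as a whole summed to 411 to 443 CPM at the label CD11b and to 347 to 376 CPM in 4 of the 5 libraries labelled CD8; the fifth, KO replicate 2, reached 467 CPM.

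The mevalonate steps were lower at the label CD11b where they passed the test. Pmvk, the phosphomevalonate kinase, stood at 23.5, 21 and 21.1 CPM in WT, versus 20.3 and 19.9 CPM in KO at the label CD11b. With the label CD8 it reached 40.9, 39.7 and 36.2 CPM in WT, versus 43.7 and 40.4 CPM in KO. The 2 labels were far apart, with log2 differences of -0.83 ± 0.159 (edgeR adjusted p = 0.000238) in WT and -1.07 ± 0.196 (adjusted p = 0.000204) in KO. Mvd, at 2.05, 0.830 and 2.60 CPM in WT libraries labelled CD11b, read 4.97, 7.79 and 5.77 CPM in WT libraries labelled CD8. In KO it stood at 3.03 and 5.08 CPM against 5.52 and 6.79 CPM, so neither genotype overlapped between labels. The log2 difference was -1.76 ± 0.481 in WT (adjusted p = 0.00671) and -0.60 ± 0.562 in KO (adjusted p = 0.535). Over all libraries Mvd had 495 counts on its own strand and 538 on the other, where Gm20388 is annotated, and its WT difference was -1 (adjusted p = 0.0102) with both strands counted.

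Hmgcs1, the synthase that makes HMG-CoA and the member with the sterol response element letters shown above, stood at 14.7, 15.5 and 15.3 CPM in WT, versus 10.2 and 16.5 CPM in KO at the label CD11b. At the label CD8 it stood at 17.5, 23.3 and 25 CPM in WT, versus 25.9 and 25.3 CPM in KO. The labels did not overlap, but only the KO difference passed: -0.53 ± 0.221 in WT (edgeR adjusted p = 0.0742) and -0.93 ± 0.272 in KO (adjusted p = 0.0140). The WT difference was called without CD8 WT replicate 1 (-0.67, adjusted p = 0.0415). The KO call of Hmgcs1 was lost without any one of CD11b KO replicate 1 (adjusted p = 0.190), CD8 KO replicate 1 (0.0704) or CD8 KO replicate 2 (0.0557), and with both strands counted (0.0598). Whether these label differences differed between genotypes is the same test as the difference of KO effects, in which no member passed. The 7 mevalonate genes together summed to 41.9 to 51.1 CPM at the label CD11b and to 73.3 to 84.9 CPM at the label CD8. Pmvk and Hmgcs1 weigh most in these sums, at WT means of 21.9 and 15.1 CPM against 38.9 and 21.9 CPM. In WT 1 of the 7, Fdps, went the other way, at 1.63 against 0.509 CPM.

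Of the 11 squalene and sterol ring genes, Cyp51 alone was called between labels, 9.09% in each genotype against 29.5% of all genes in WT and 22.8% in KO. Cyp51, the lanosterol demethylase, stood at 22.2, 20.2 and 25.6 CPM in WT, versus 16.1 and 22.9 CPM in KO at the label CD11b. With the label CD8 it reached 39.2, 47.9 and 35.4 CPM in WT, versus 38.5 and 38.8 CPM in KO. All libraries labelled CD8 were above all labelled CD11b, with log2 differences of -0.85 ± 0.180 (edgeR adjusted p = 0.000695) in WT and -0.98 ± 0.223 (adjusted p = 0.00184) in KO. Among the 10 others, Dhcr7, which completes cholesterol, had differences of -0.57 and -1.30 (adjusted p = 0.341 and 0.0753). Ebp, the sterol isomerase, ranged from 13.9 to 24.6 CPM over the libraries labelled CD11b, versus 7.58 to 18.8 CPM over those labelled CD8, with differences of 0.42 and 0.71 (adjusted p = 0.306 and 0.170). The KO difference of Ebp was called without CD8 KO replicate 2 (1.44, edgeR adjusted p = 0.0148), and that of Sc5d, the desaturase of the sterol ring, without CD11b KO replicate 2 (-1.61, adjusted p = 0.0408). The regulators did not pass: Srebf2 differed by -0.07 and -0.15, Srebf1 by -0.22 and -0.29, Scap by 0.22 and 0.30, and Insig1 by -0.31 and -0.70 in WT and KO, with the smallest adjusted p of 0.0595 for Insig1 in KO.

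**Figure D5:**
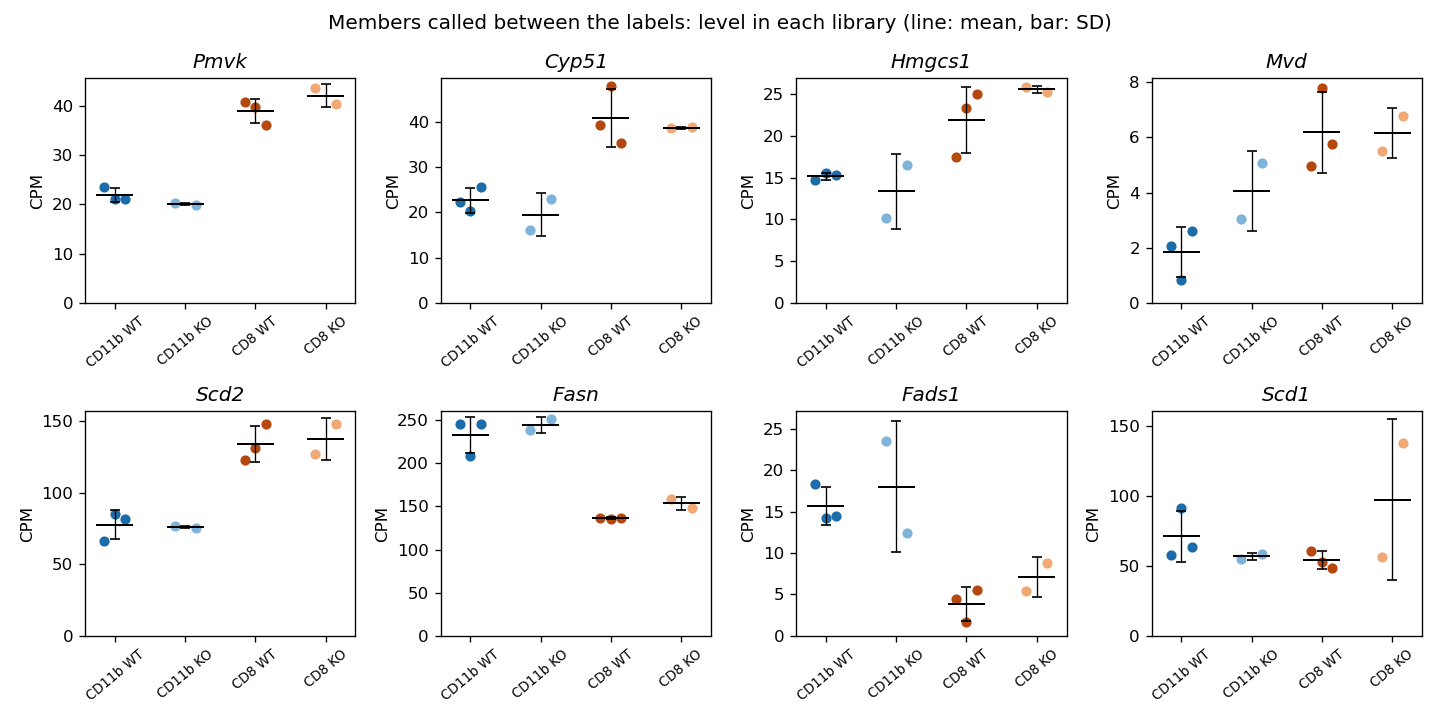
Level in CPM (y axis) of the members called between the subset labels in either genotype, 1 point per library by group, with a line at the group mean and bars of 1 SD. Fasn and Fads1 are higher in the groups labelled CD11b, Pmvk, Cyp51 and Scd2 are higher in the groups labelled CD8, and 1 KO library labelled CD8 is far above the others for Scd1.

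Genes around the pathway were taken from 4 further lists, chosen for their roles, and none of their members passed the test of KO against WT in either subset. Among 9 genes of SREBP processing and sterol sensing, 3 were higher at the label CD11b and 0 lower in WT, and 1 and 0 in KO, which is 33.3% and 11.1% called against 29.5% and 22.8% of all genes. Erlin1, part of a complex that turns over sterol-regulated proteins in the endoplasmic reticulum, ranged from 223 to 283 CPM under the label CD11b, versus 133 to 170 CPM at the label CD8. Its log2 differences were 0.78 ± 0.104 (edgeR adjusted p = 2.30e-06) and 0.67 ± 0.127 (adjusted p = 0.000301). Insig2, the other retention protein, was called in WT (1.13, adjusted p = 0.0225) and had 0.32 in KO (adjusted p = 0.698). Among 8 genes of sterol synthesis, uptake and storage, 1 was higher and 2 lower in WT, and 1 and 3 in KO, or 37.5% and 50% against the same 29.5% and 22.8%. The partners that move cholesterol out of lysosomes differed in opposite directions: Npc2 ranged from 173 to 210 CPM at the label CD11b and 66.0 to 73.2 CPM at the label CD8, whereas Npc1 ranged from 39.8 to 43.4 CPM and 95.8 to 111 CPM. Npc2 differed by 1.51 ± 0.102 in WT (adjusted p = 3.17e-11), and Npc1 by -1.26 ± 0.117 (adjusted p = 8.71e-09).

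Among 14 further fatty acid genes that could be tested of 16 listed, 5 were higher at the label CD11b and 1 lower in WT, and 2 and 1 in KO. These shares are 42.9% and 21.4%, against 29.5% and 22.8% of all genes. Lpin1, a phosphatidate phosphatase of fat synthesis, ranged from 33.9 to 45.0 CPM in WT, versus 21.3 to 28.4 CPM in KO at the label CD11b, against 12 to 19 and 9.22 to 9.32 CPM at the label CD8. It was lower in every KO library than in every WT library of the same label, but the mean KO difference of -0.69 ± 0.169 did not pass (edgeR adjusted p = 0.0976), while the label difference was 1.42 in KO (adjusted p = 0.000227). Among 9 of 10 oxysterol and LXR genes that could be tested, 3 were higher and 2 lower in WT, and 2 and 4 in KO, or 55.6% and 66.7% against the same background. LXRs are the receptors that sense oxidised sterols. Abca1, a cholesterol exporter and LXR target, ranged from 11.6 to 23.7 CPM under the label CD11b, versus 63.0 to 97.1 CPM at the label CD8, with log2 differences of -2.24 ± 0.198 (adjusted p = 3.55e-09) and -2.67 (adjusted p = 1.57e-08). Nr1h3, which encodes LXR alpha, was lower at the label CD11b as well, with log2 differences of -2.57 and -3.61. Mylip, another LXR target, was higher, with 0.94 and 1.02, and all 4 of these values passed the edgeR threshold. The sum of red pulp macrophage markers was also larger at the label CD8, and its part in these values was not tested.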

How the data were processed

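RNA of 10 sorted spleen dendritic cell samples was sequenced with a stranded total RNA kit, per the labels' protocols. The deposited values are read counts per gene for 3 strand settings, aligned with STAR 2.5.0a to GRCm38, per the submitters' processing notes. The strand-specific column was used, because it held 16.1 times the gene counts of the opposite strand. Of all reads, 59.2 to 67.8% were not assigned to a gene and stayed out of library sizes and tests. That share includes the reads mapped to more than 1 place (21.7 to 25.5% of all reads). Symbols and exon lengths came from GENCODE M21, which matched 53274 of 53379 identifiers, and promoter windows from RefSeq.

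The 10 libraries were fitted together with edgeR 4.0.16 (R 4.3.3): filterByExpr by group, TMM scaling, 4 group means, the quasi-likelihood test, and Benjamini-Hochberg adjustment over 14528 genes at 0.05. Fold changes are on the log2 scale. Their SEs are approximations: the absolute log2 difference divided by the square root of the quasi-likelihood F statistic. The 95% intervals were built from these SEs with a t distribution. The fit was also run on counts simulated with its own estimated spread. Those counts held no library that stands apart, such as CD8 KO replicate 2, so the run cannot show how the fit handles one. The alternatives were RLE scaling, other filters, DESeq2 1.42.0, limma-voom (limma 3.58.1), unstranded counts, a replicate block, only the groups compared, and each library left out. Named genes are the 30 members, with up to 4 genes of each further list by smallest p, and Atg16l1. The members and lists were chosen with earlier results of these data known. Samples came from individual mice, and p-values rest on the spread between libraries within groups, pooled over the 4 groups. The reported fit treated the 10 libraries as independent, with no term for mouse. If a mouse gave a library to each label, p-values that combine or compare the labels do not allow for it. Intervals on counts cover counting error only.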

Additional observations from a re-analysis of the deposited data

How the results depend on the processing

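The members called for KO against WT at the label CD8, and for the difference of effects, were 0 in the reported fit and 1 (Scd1) with no filter on low counts. Leaving out each library in turn gave 0 to 1 for both, the 1 being without CD8 KO replicate 1. Members called between labels in KO ranged from 4 (without CD11b KO replicate 1) to 7, and the label difference of Scd1 in KO reversed to 0.013 without CD8 KO replicate 2, alone or together with CD11b WT replicate 1 (0.013 again), and was -1.28 without CD8 KO replicate 1. The cause was not tested. Pmvk, Cyp51, Fasn and Scd2 kept their calls in all 19 alternatives in both genotypes, and Mvd and Fads1 in all 19 in WT.

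Genes called over the whole table for KO against WT moved more. At the label CD11b, 21 became 71 with no filter, 42 with DESeq2 and 13 without CD11b WT replicate 1 and CD8 KO replicate 2, with 14 to 29 when leaving out 1 library. At the label CD8, 21 became 142 with no filter, 59 with DESeq2, 63 with limma-voom and 78 with only the groups compared; leaving out 1 library gave 7 (without CD8 KO replicate 2) to 53 (without CD8 KO replicate 1), and 32 without CD11b WT replicate 1. The mean effect moved from 42 to 175 with no filter and 98 with DESeq2 (17 without CD8 KO replicate 2, 77 without CD11b WT replicate 2), and the difference of effects from 3 to 41 with no filter, 12 with DESeq2, 6 with unstranded counts (5 to 8 without CD11b WT replicate 1 or 3, CD8 WT replicate 1 or 3 or CD8 KO replicate 1, and 3 to 4 without any other library).

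Deviations of same-numbered libraries from their group means had small correlations, of -0.0373 to 0.0594. Between the labels of the same genotype, where a mouse could be shared, these were 0.0491, 0.0182 and 0.0256 in WT and 0.0409 in KO. Libraries of different number there had -0.0367 to 0.0117 in WT and -0.0409 in KO. With 2 libraries per KO group, the KO value is that of the same number with its sign reversed by construction. Deviations within a WT group cancel as well, so the WT values of same and different number are not independent. Whether mice were shared was not tested, and replicate numbers were not taken as a pairing because the labels do not say what they mark. With the replicate block, the members called in the 6 comparisons stayed at 0, 0, 0, 0, 6 and 7, and genes called over the whole table for the difference of effects were 8.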

Other observations

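The relative level of the 2 stearoyl-CoA desaturase genes separated the subset labels in WT cells. Scd2 per kilobase over Scd1 per kilobase was 0.997 ± 0.156 (SD, n = 3, range 0.830 to 1.14) in WT libraries labelled CD11b and 2.25 ± 0.461 (n = 3, range 1.81 to 2.73) in WT libraries labelled CD8. In KO it was 1.15 and 1.25 at the label CD11b and 2.02 and 0.961 at the label CD8, the last in the library with the highest Scd1. Fasn per kilobase over Acaca per kilobase was 10.2 to 19.9 in WT libraries labelled CD11b and 7.19 to 12.2 in those labelled CD8, ranges that overlapped. The 2 desaturase transcripts share 4.0% to 4.6% of their 50-base stretches with other Scd genes. For Acaca the share with other genes was 30.4%, against 0.0% for Fasn, so uncounted Acaca reads could raise the ratio of Fasn to Acaca. No test was run on these ratios.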
